A study of Drosophila melanogaster with 58 samples.

Results

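The difference between too much and too little gcm was followed in whole Drosophila melanogaster embryos at stages 10, 11 and 12, the period in which lateral glia are born. The arrays were chosen by experiment and stage in their titles, which gave 25 of the 58 arrays of the series, 12 with gain and 13 with loss of function. In the gain of function, the MZ1060 Gal4 line was crossed to the UAS-gcm stock B5446, and its wild type was a pool of equal amounts of mRNA of both parental lines. In the loss of function, gcmN7-4 homozygotes were picked by an embryo sorter through their lack of GFP, which the balancer carried as Kr-GFP at these stages, and their wild type was OregonR handled in the same way. Gain of function had 4 arrays at each stage, and loss of function had 5 at stage 10 and 4 at each of stages 11 and 12. Each array held perturbed embryos in one dye and wild type of the same stage in the other, so a value is a log2 ratio to wild type and says nothing of the level of a transcript. The quantity described below is the mean of the 3 gain-of-function stage means minus the mean of the 3 loss-of-function stage means. The wild types, the genetic backgrounds and the sorting all differed between the experiments and cannot be told apart from the direction of the gcm manipulation in this difference.

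The gcm gene encodes a zinc-binding transcription factor, glial cells missing, which switches lateral neural progenitors from neuronal to glial fate. Embryos that lack it lose nearly all lateral glia and gain neurons, and ectopic gcm does the reverse. Its targets include repo, a homeodomain factor that maintains glial differentiation, and loco, a regulator of G protein signalling. Together with its neighbour and relative gcm2 it also acts in the blood cells called plasmatocytes. In whole embryos, fewer cells of a type and less RNA per cell cannot be told apart.

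Of the 23808 probes, 19950 to 23100 were measured on the gain-of-function arrays and 10820 to 23250 on the loss-of-function arrays. Log ratios of the arrays were noisy. Each gain-of-function array correlated with the mean of the rest of its group at a rho of 0.216 to 0.401, and each loss-of-function array at 0.0563 to 0.388. The lowest of these values belonged to the array labelled replicate 4 of loss-of-function stage 12. Its gcm value of 0.74 also went against the label, but a single gene does not show that the label is wrong, which was not tested. This doubtful array was kept, and results that rest on it are given without it too. Maternal RNAs stood above wild type on all 25 arrays, with a mean log2 ratio of 0.61 to 1.35 in the gain and 0.20 to 1.49 in the loss of function (plotted by array below).

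**Figure D1:**
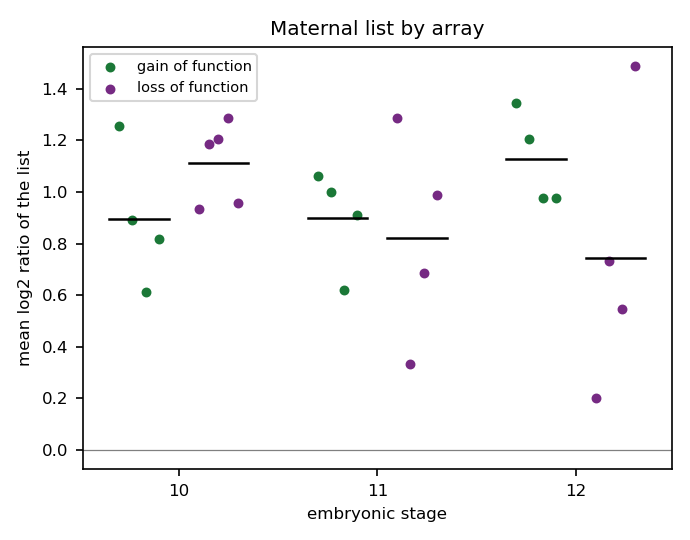
Mean log2 ratio to wild type of the maternal RNA list on each array (points), by embryonic stage and experiment, with the group mean as a black bar. All points lie above 0, and loss of function spreads from 0.20 to 1.49.

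Across the genome, 905 of the 9123 genes tested differed between gain and loss (9.92%, limma, adjusted p below 0.05), 741 of them higher with gain (8.12%) and 164 lower (1.8%). Counted over probes, 8.04% were called. The gain average called 25.2% of the genes and the loss average 22.6%. Without the doubtful array 1075 genes were higher with gain and 151 lower, with 870 genes shared. Without replicate 2 of loss-of-function stage 11 they numbered 585 and 209, and without replicate 4 of that stage 745 and 147. On arrays left uncentred the split was 462 higher and 13 lower, so that 97.3% and not 81.9% of the called genes were higher, and the median of all genes moved from 0.10 to 0.43. Of the 741 genes higher with gain, 380 were called in the gain average alone, 166 in the loss average alone and 62 in both in opposite directions. Another 86 were called in both averages in the same direction, and 47 in neither. Most of these genes were therefore not called in opposite directions in both averages. The direction of the averages that were not called was not counted, so smaller mirror-image changes may be among them.

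The targeted gene was measured first. The log2 ratio of gcm on the gain-of-function arrays was 0.47, 0.77, 1.26 and 1.18 at stage 10, 1.60, 1.06, 0.92 and 0.92 at stage 11, and 1.43, 1.31, 1.49 and 1.92 at stage 12. On the loss-of-function arrays it was -1.68, -1.52, -2.09, -1.15 and -1.0 at stage 10, -1.49, -2.04, -0.41 and -0.89 at stage 11, and -1.22, -0.40, -0.31 and 0.74 at stage 12. All 12 gain-of-function arrays lay above 0 and 12 of 13 loss-of-function arrays below it, and the groups overlapped through that 1 array. The difference was 2.23 ± 0.23 (SE, adjusted p = 3.35e-09), a 4.69-fold difference in ratio, made of 1.21 in the gain and -1.02 in the loss average. Without the doubtful array it was 2.32. The difference was called at each stage, at 2.36 for stage 10, 2.45 for stage 11 and 1.88 for stage 12. RNA of the transgene can add to the gain of function. Where the probe lies with respect to the gcmN7-4 lesion is not stated in the labels. The relative gcm2 did not pass the test in the difference (-0.14, adjusted p = 0.925) or in either average.

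Among glial fate regulators, loco was the called member of the 3 tested of 5 listed. Thus 1 was higher and 0 lower, beside 8.12% and 1.8% of all genes, and the median difference was 0.44 against 0.10 over all genes. The ratio of loco was 0.54, 0.23, 0.18 and 0.30 at gain-of-function stage 10, 0.21, 0.01, 0.30 and 0.06 at stage 11, and 0.29, -0.06, 0.15 and 0.32 at stage 12. In the mutants it was -0.93, -0.80, -0.94, -0.55 and -0.36 at stage 10, -0.33, -1.12, -0.22 and -0.37 at stage 11, and -0.37, 0.16, 0.74 and 1.02 at stage 12. The groups were apart at stages 10 and 11 and overlapped at stage 12. The averaged difference was 0.51 ± 0.14 (adjusted p = 0.011), with 0.21 in the gain average, which did not pass, and -0.30 in the loss average, which did. It was 0.99 at stage 10, 0.75 at stage 11 and -0.21 at stage 12, and it was called at stage 10 (adjusted p = 0.0132). The call was lost on uncentred arrays (0.84, adjusted p = 0.0747) and with the 25 arrays fitted alone (0.51, adjusted p = 0.0628). It was also lost without stage 10 (0.27, adjusted p = 0.527) and without stage 11 (0.38, adjusted p = 0.227), and a second loco probe had 0.39 (adjusted p = 0.551).

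The ratio of repo was 0.35, 0.00, 0.06 and 0.67 at gain-of-function stage 10, 0.24, 0.33, 0.30 and 0.14 at stage 11, and 0.29, 0.17, 0.36 and 0.62 at stage 12. Mutant arrays had 0.04, -0.23, -0.28, -0.33 and -0.03 at stage 10, -0.19, -0.37, 0.01 and 0.01 at stage 11, and 0.04, 0.25, 0.51 and -0.98 at stage 12. All gain-of-function values were at or above 0, and the groups overlapped at stages 10 and 12. The difference of 0.44 ± 0.16 did not pass (adjusted p = 0.0931), nor did either average. Without the doubtful array the gain average of 0.31 passed (adjusted p = 0.0263), and the difference was 0.32 (adjusted p = 0.191). The gene retn, an ARID-domain factor of longitudinal glia, was higher in both averages, at 0.87 and 0.48. Its loss values followed the dye, at -0.02 with the mutant in Cy3 and 0.99 with it in Cy5. The gain values were 0.74 and 0.98 in these orientations.

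**Figure D2:**
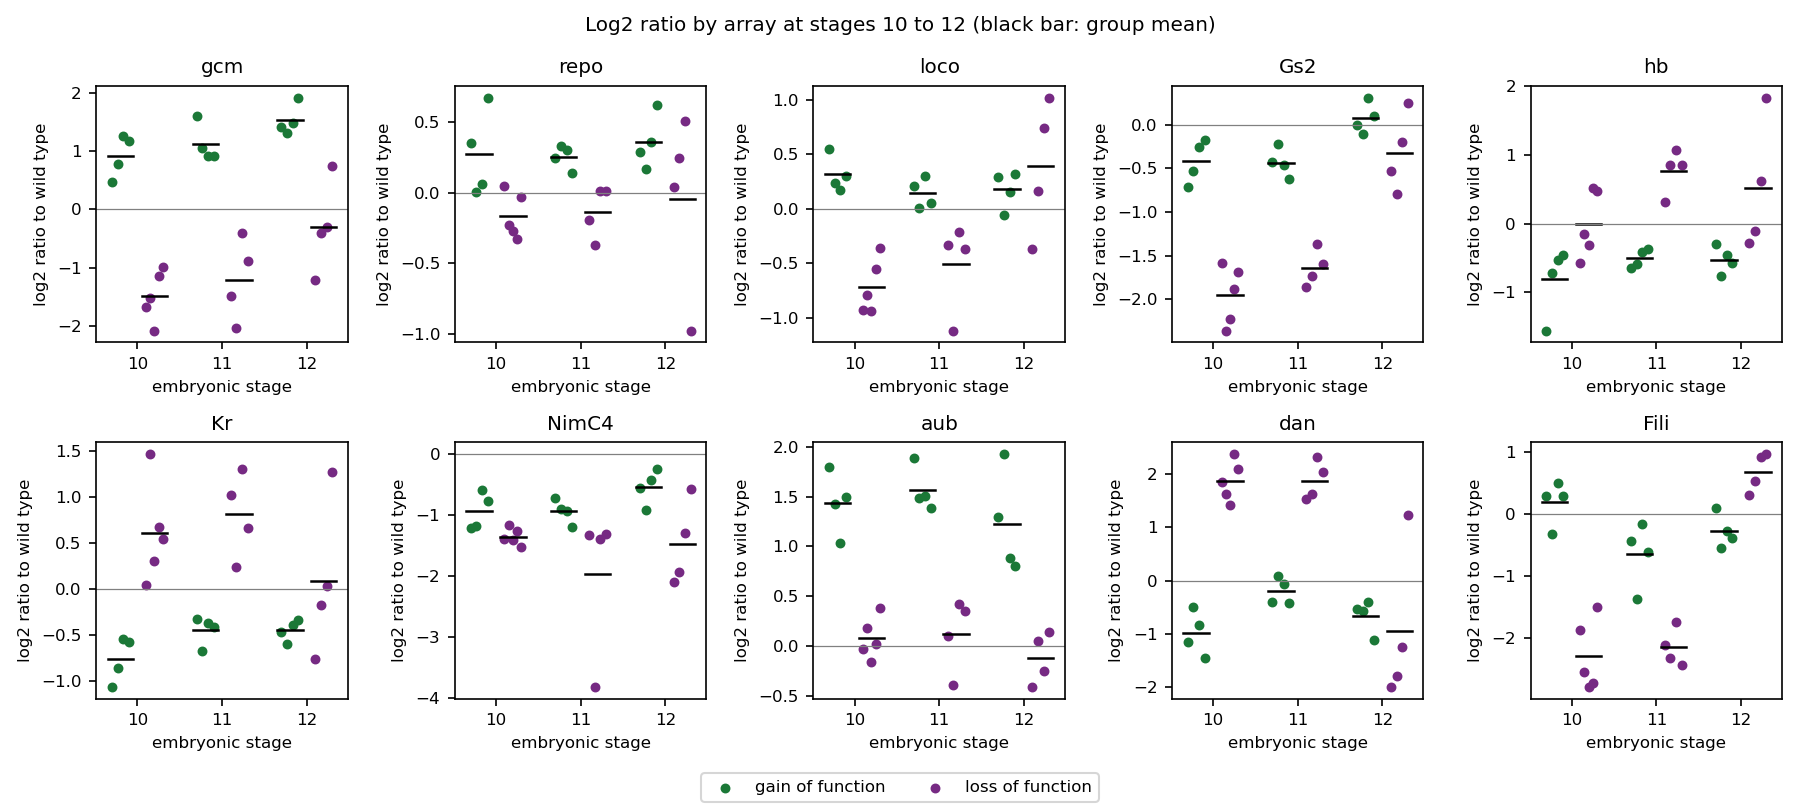
Log2 ratio to wild type of 10 genes on each array (points) by embryonic stage, for gain (green) and loss of function (purple), with the group mean as a black bar and a separate vertical scale for each gene. The loss-of-function point of gcm above 0 at stage 12 is 0.74, and the loss-of-function values of dan and Fili change sides between stages 11 and 12.

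Genes of differentiated glia did not move as a group in the difference. Of 14 tested of 18 listed, Gs2 was higher with gain and ogre was lower, beside 8.12% and 1.8% of all genes. The median was 0.05. In the separate averages, 6 were lower in the gain (10.4% of all genes) and 6 in the loss of function (14.5% of all genes), with medians of -0.30 and -0.50. The ratio of Gs2, a glutamine synthetase, was -0.72, -0.53, -0.26 and -0.18 at gain-of-function stage 10, -0.42, -0.23, -0.46 and -0.62 at stage 11, and -0.01, -0.11, 0.31 and 0.10 at stage 12. In the mutants it was -1.59, -2.36, -2.22, -1.89 and -1.69 at stage 10, -1.86, -1.73, -1.37 and -1.60 at stage 11, and -0.54, -0.80, -0.20 and 0.24 at stage 12. The groups were fully apart at stages 10 and 11 and overlapped at stage 12. The difference of 1.04 ± 0.19 (adjusted p = 0.000218) came from the loss average of -1.31, while the gain average of -0.27 did not pass. Without stage 10 the call was lost (0.79, adjusted p = 0.0666). The gap junction gene ogre (an innexin) differed by -0.58 (adjusted p = 0.0198), with -0.56 in the gain and 0.02 in the loss average, and it lost its call on uncentred arrays, with zeros kept, with the 25 arrays alone and without each of the 3 stages (adjusted p from 0.0666 to 0.691). Both averages were lower for nrv2, a sodium pump subunit gene of septate junctions (-0.72 and -0.72), and for Nrx-IV, which encodes a neurexin of these junctions (-0.60 and -0.71).

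Several proneural and neuroblast genes were lower with gain. Of 24 tested of 25 listed, 5 were lower with gain and 0 higher (median -0.27), beside 1.8% of all genes called lower. At an unadjusted p below 0.05, 10 were lower and 0 higher, beside 2094 of all 9123 genes in both directions together. The 5 called members were Kr, hb, sna, numb and nub. The zinc finger proteins encoded by hb and Kr mark the first and second temporal identity of dividing neuroblasts, and sna encodes a zinc finger factor of neuroblasts and mesoderm. The protein encoded by numb is an inhibitor of Notch that is inherited by 1 daughter cell, and nub encodes a POU factor of a later temporal window.

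The ratio of hb was -1.56, -0.71, -0.52 and -0.45 at gain-of-function stage 10, -0.65, -0.59, -0.41 and -0.37 at stage 11, and -0.29, -0.76, -0.46 and -0.58 at stage 12. In the mutants it was -0.57, -0.15, -0.30, 0.53 and 0.48 at stage 10, 0.31, 0.85, 1.07 and 0.86 at stage 11, and -0.28, -0.10, 0.62 and 1.84 at stage 12. All gain-of-function arrays were below 0, and the groups were apart at stage 11 and, narrowly, at stage 12. The difference was -1.0 ± 0.17 (adjusted p = 5.59e-05), with -0.61 in the gain and 0.40 in the loss average. The mutant values of hb followed the dye: the mean of the stage means was -0.07 with the mutant in Cy3 and 0.89 with the mutant in Cy5, and gain minus loss was -0.68 and -1.37 within these orientations. Without the doubtful array the loss average was 0.29 and no longer passed (adjusted p = 0.0687), while the difference, at -0.89, did (adjusted p = 8.18e-05).

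The ratio of Kr was -1.07, -0.86, -0.55 and -0.58 at gain-of-function stage 10, -0.33, -0.68, -0.37 and -0.42 at stage 11, and -0.47, -0.60, -0.39 and -0.34 at stage 12. Mutant arrays had 0.04, 1.47, 0.30, 0.67 and 0.54 at stage 10, 1.03, 0.24, 1.31 and 0.67 at stage 11, and -0.76, -0.18, 0.03 and 1.27 at stage 12. The groups were fully apart at stages 10 and 11, and all 12 gain-of-function arrays were below 0. The difference was -1.02 ± 0.19 (adjusted p = 0.000294), with -0.53 in the gain and 0.48 in the loss average, both called. It was -1.04 with the perturbed sample in Cy3 and -1.10 with it in Cy5. The balancer from which the mutants were sorted carried Kr-GFP, and the part of that selection in the Kr values was not tested.

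The other called members were sna (-0.90, with -0.29 in the gain average, which did not pass, and 0.61 in the loss average), numb (-0.61, not called without stage 11 or stage 12 or with zeros kept) and nub (-0.42, adjusted p = 0.048). The call of nub was lost in 30 of 41 alternative settings, among them without the doubtful array (-0.36, adjusted p = 0.0872). Loss values of sna, numb and nub followed the dye. They were 0.17, -0.09 and -0.39 with the mutant in Cy3 and 1.04, 0.68 and 0.38 with it in Cy5. On uncentred arrays none of the 5 passed and the median of the list was 0.06, so the direction of the list depends on the centring. Among the members not called in the difference, the temporal factor gene cas was lower in both averages, at -1.05 and -1.27, and so was the neuroblast repressor gene dpn, at -0.74 and -0.80, with differences of 0.21 and 0.06 that did not pass. In the gain average 12 of the 24 were lower and 1 higher, beside 10.4% and 14.9% of all genes. In the loss average 4 were lower and 4 higher, beside 14.5% and 8.07% of all genes.

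Of 5 midline and commissure genes tested, 2 were lower with gain (1.8% of all genes): sli, which encodes the repellent Slit (-0.74 ± 0.14, adjusted p = 0.000326), and comm, which controls its receptor (-0.57, adjusted p = 0.0308). Neither passed on uncentred arrays (sli -0.41, adjusted p = 0.467), and sli did not pass without stage 12 (-0.53, adjusted p = 0.0675). The call of comm was lost in 12 of 41 alternative settings, among them without the doubtful array (-0.49, adjusted p = 0.0583). It was also lost without stage 10, without stage 11, without stage 12 and with zeros kept (adjusted p from 0.0966 to 0.195). Of 9 Notch pathway genes tested, H was higher with gain (8.12% of all genes). It encodes Hairless, the co-repressor that binds Su(H), and its difference was 0.81 ± 0.16 (adjusted p = 0.000396), with 1.09 in the gain and 0.28 in the loss average. On the gain-of-function arrays H ranged from 0.74 to 1.59 (median 1.04, n = 12) and on the loss-of-function arrays from -0.57 to 1.29 (median 0.29, n = 13), so the groups overlapped. It was not called without stage 10 (0.59, adjusted p = 0.103). Genes of the E(spl) complex, which Notch activates, were not called in the difference, and E(spl)mdelta-HLH and E(spl)malpha-BFM were lower in both averages. Against the same shares of all genes, 8.12% higher and 1.8% lower, Csp, a synaptic vesicle chaperone gene, was higher among 10 neuronal genes tested (0.55), and of 7 tracheal genes uif, which encodes a transmembrane protein of the airways, was lower (-0.62). Neither passed on uncentred arrays or without stage 12. Csp also did not pass with the 25 arrays alone, without stage 10 or without stage 11, and uif did not with zeros kept. Of 7 muscle, 6 gut and 8 cellularisation genes tested, 0 were called in the difference by limma. At an unadjusted p below 0.05 there was 1 of each list, beside 2094 of all 9123 genes in both directions together.

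Several blood cell and matrix genes were lower than wild type in both experiments. Of 8 plasmatocyte genes tested, 1 was higher with gain (8.12% of all genes) and the median difference was 0.46. In each separate average 3 of the 8 were lower, beside 10.4% of all genes in the gain and 14.5% in the loss of function. NimC4, which encodes a receptor for apoptotic cells, had ratios of -1.21, -1.18, -0.59 and -0.77 at gain-of-function stage 10, -0.72, -0.90, -0.94 and -1.19 at stage 11, and -0.57, -0.91, -0.43 and -0.25 at stage 12. In the mutants it had -1.40, -1.17, -1.42, -1.26 and -1.53 at stage 10, -1.33, -3.82, -1.40 and -1.31 at stage 11, and -2.11, -1.94, -1.30 and -0.57 at stage 12. All 25 values were below 0, and at stage 11 the groups did not overlap. The difference was 0.82 ± 0.21 (adjusted p = 0.00792), between averages of -0.79 and -1.61. It was not called on arrays scaled to one spread (0.50, adjusted p = 0.0591), with the 25 arrays alone (0.82, adjusted p = 0.0778), without stage 11 (0.68, adjusted p = 0.0521) or without stage 12 (0.73, adjusted p = 0.0941).

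PPO2, a prophenoloxidase of crystal cells, had -1.0 in the gain and -1.86 in the loss average, and its difference of 0.87 did not pass (adjusted p = 0.0626). Of 12 extracellular matrix genes tested, 7 were lower in the gain and 8 in the loss average, beside 10.4% and 14.5% of all genes. In the difference 0 were called by limma. At an unadjusted p below 0.05, 2 were higher, beside 2094 of all 9123 genes in both directions together. The peroxidasin gene Pxn had -0.90 and -1.72 (difference 0.82, adjusted p = 0.0756), and the papilin gene Ppn had -0.66 and -1.19 (difference 0.53, adjusted p = 0.0594). Without the doubtful array the differences of PPO2, Pxn and Ppn passed, at 0.94, 0.88 and 0.56 (adjusted p = 0.0377, 0.0469 and 0.0416).

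**Figure D3:**
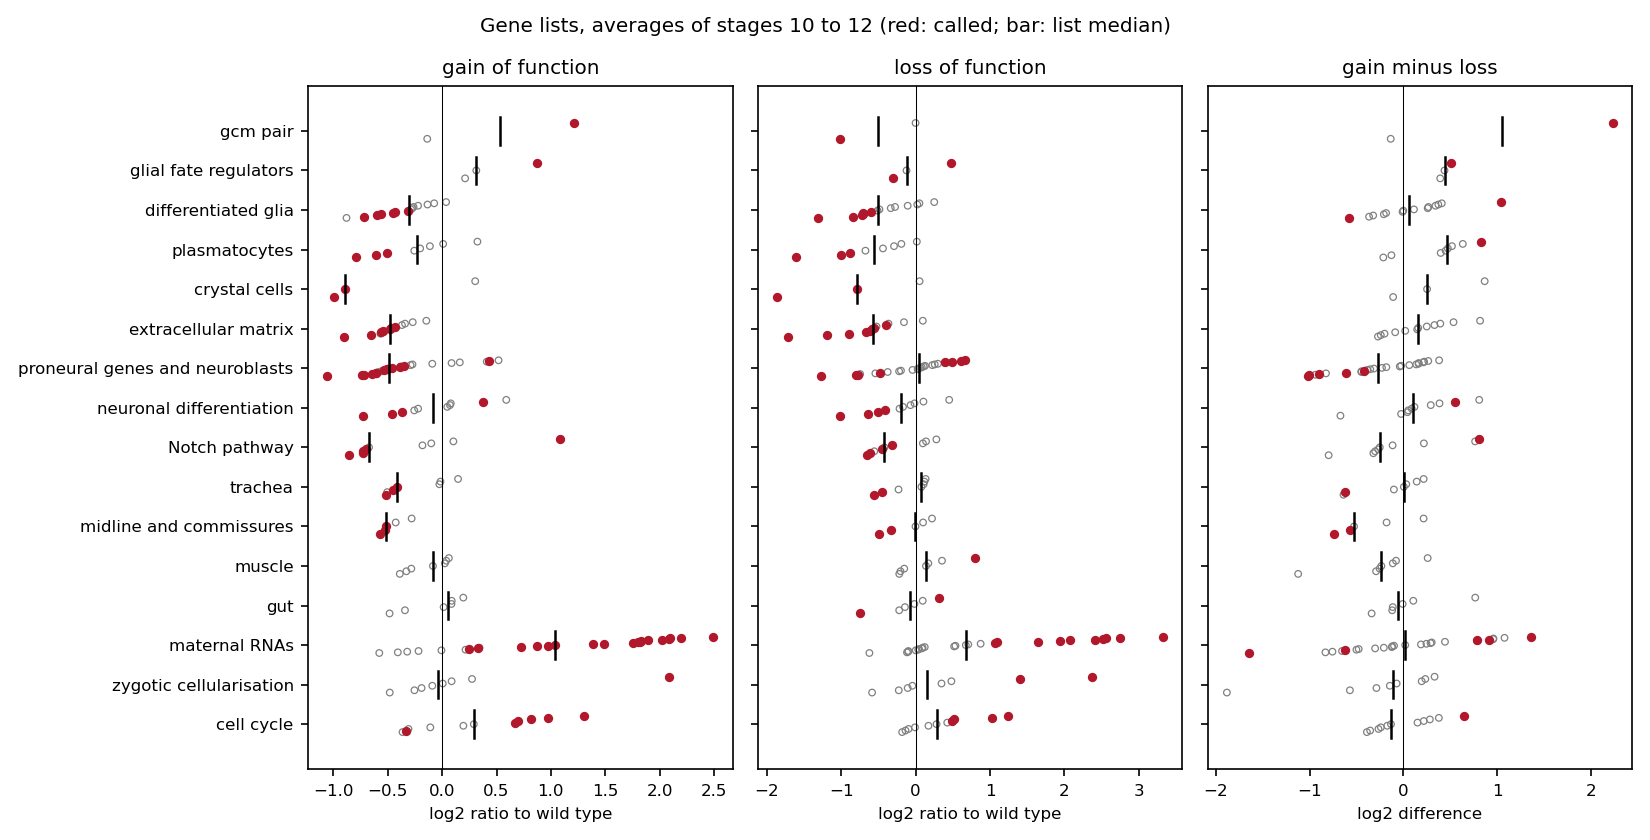
Averages over stages 10 to 12 for the tested members of each gene list: gain of function and loss of function as log2 ratios to wild type, and their difference in log2. Red points are called members, open points are not, and black bars are list medians. The maternal list lies above 0 in both experiments (medians 1.04 and 0.67) and near 0 in the difference (0.02).

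Many maternal RNAs, which the mother loads into the egg and the embryo clears early, were higher than wild type in both experiments. Of 25 tested of 32 listed, 18 were higher and 0 lower in the gain average (14.9% of all genes higher), and 10 higher and 0 lower in the loss average (8.07% of all genes higher). The difference had 3 higher and 2 lower (median 0.02), beside 8.12% and 1.8% of all genes. The translational repressor gene smg stood at 2.09 and 2.07, with a difference of 0.02 (adjusted p = 0.98). Marf1, an oocyte regulator of mRNA, stood at 2.49 and 3.33 (difference -0.83, adjusted p = 0.219), and the early embryonic linker histone gene BigH1 at 2.10 and 2.75. Of 11 cell cycle genes tested, 5 were higher and 1 lower in the gain average and 4 higher in the loss average, beside 14.9%, 10.4% and 8.07% of all genes, with Orc1 at 1.30 and 1.02. With the maternal mean of each array as a covariate, 191 in place of 2902 probes were called in the gain average, 1530 in place of 2698 in the loss average and 1262 in place of 1242 in the difference. This covariate was not centred. Both averages were therefore extrapolated to a maternal mean of 0, below the lowest array of the gain (0.61) and of the loss of function (0.20). Their counts cannot show how far maternal RNA accounts for the changes. How far the ages of the embryos and of their wild types matched was not tested.

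A few maternal genes differed between the experiments. The ratio of aub, which encodes a piRNA-binding protein of the germ line, was 1.80, 1.43, 1.04 and 1.5 at gain-of-function stage 10, 1.89, 1.48, 1.51 and 1.38 at stage 11, and 1.30, 1.93, 0.89 and 0.80 at stage 12. Mutant arrays had -0.03, 0.18, -0.16, 0.02 and 0.38 at stage 10, 0.11, -0.39, 0.42 and 0.35 at stage 11, and -0.41, 0.05, -0.25 and 0.14 at stage 12. No gain-of-function array overlapped a loss-of-function array. The difference was 1.36 ± 0.24 (adjusted p = 0.000106), and it was called in all 40 alternative settings. The dorsal-ventral genes cact (0.91, with 1.04 and 0.12) and Tl (0.79, with 0.87 and 0.08) were higher in the gain as well, and Tl was not called without stage 10 (0.52, adjusted p = 0.162) or without stage 11 (0.55, adjusted p = 0.0637). The other way, gnu, a subunit of a kinase complex of the early nuclear cycles, was lower with gain by 1.65 (gain -0.01, loss 1.64, adjusted p = 0.0169), a call lost on uncentred arrays, with the 25 arrays alone (adjusted p = 0.0875), without stage 10 (adjusted p = 0.193) and without stage 11 (adjusted p = 0.126). Its loss average was 1.16 without the doubtful array, on which gnu stood at 6.30.

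The highest differences came from either experiment. CG14973 had 3.70 ± 0.47 (adjusted p = 8.85e-07), with 0.17 in the gain and -3.53 in the loss average, and pr had 2.65 ± 0.29 (adjusted p = 1.86e-08), with 0.49 and -2.16. The gene pr, purple, encodes an enzyme of pterin synthesis in the eye. Its gain-of-function arrays ranged from -0.01 to 0.85 (median 0.55) and its loss-of-function arrays, of which 12 measured it, from -4.30 to -1.42 (median -2.04), with no overlap. Through the gain average came CG5704 (2.53, with 2.49 and -0.04) and the glycosyltransferase gene Ugt36E1 (2.10, with 3.07 and 0.97). The other members of the 12 highest besides gcm were CG5768, CG31674, CG11594, CG15547, nAChRalpha7, MFS3 and CG6834, with differences from 2.17 to 2.79. Of these, nAChRalpha7 was not called without the doubtful array (1.79, adjusted p = 0.0612). It lost its call in 12 of 39 alternative settings, CG5768 in 3, MFS3 in 2 and CG6834 in 1.

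Among the 12 lowest differences, 9 had a loss average called higher, and BomBc3, Gpo3 and CNT2 passed in neither average. The germ line innexin gene zpg had -2.75 ± 0.34 (adjusted p = 2.37e-07), with -0.90 in the gain and 1.85 in the loss average. The yolk receptor gene yl had -2.68 ± 0.37 (adjusted p = 2.90e-06), with 0.84 and 3.52, and its gain-of-function arrays (-1.29 to 1.88, median 0.99) lay below all 12 loss-of-function arrays that measured it (2.38 to 4.36, median 3.58). The glutathione transferase gene GstD9 had -2.19 ± 0.18 (adjusted p = 8.78e-12), with -1.35 to 0.06 in the gain (median -0.23) and 1.22 to 3.01 in the loss of function (median 1.64), again without overlap. The lowest value was that of Ir7g (-3.48), whose groups overlapped, and it was -2.96 without the doubtful array, where Ir7g stood at 8.74. The others were CG14151, slo, BomBc3, pst, CG8607, Gpo3, Clk and CNT2, from -3.10 to -2.05. Of these, Gpo3 lost its call in 14, BomBc3 in 11, CG14151 in 10 and slo in 1 of 39 alternative settings, and CNT2 in 4 of 40. BomBc3 differed by -4.84 with the perturbed sample in Cy3 and by -0.43 with it in Cy5. Over all genes, 14 had every gain-of-function array above every loss-of-function array (0.153%), and 4 the reverse (0.0438%).

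Mirror-image changes were counted from both averages. They numbered 62 genes higher in the gain and lower in the loss of function (0.68%) and 19 the other way (0.208%), against 461 higher in both (5.05%) and 518 lower in both (5.68%). Without the doubtful array they numbered 100 and 15, and on uncentred arrays 6 and 0. With the maternal list mean of each array as a covariate they numbered 0 and 1. Both averages were there extrapolated to a maternal mean of 0, which no array had, so these counts say little of the mirror-image genes. Of the 62 and the 19, 51 and 12 had the same 2 signs at all 3 stages.

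Besides gcm, the mirror-image genes higher in the gain included CG31674 (1.60 and -1.0), CG11594 (1.0 and -1.56), CG6180 (0.89 and -1.0), CG10939 (0.85 and -0.60), Herc4 (0.59 and -0.65) and the secretory SNARE gene Sec22 (0.62 and -0.55). Dph1, an enzyme gene of diphthamide synthesis, had 0.56 and -1.43. Its gain-of-function arrays (0.17 to 1.32) all lay above its loss-of-function arrays (-3.40 to 0.15). Nagk, taken up after its values were seen because its groups did not overlap, had 0.54 and -1.49. Those lower in the gain were zpg, the glutathione transferase gene GstD10 (-0.64 and 0.92), CG2233 (-0.65 and 0.90), dan (-0.62 and 0.90), ImpE2 (-0.60 and 0.62), Pino (-0.69 and 0.50), the insulin-binding protein gene ImpL2 (-0.56 and 0.46) and Kr. When the doubtful array was left out, the loss averages of CG31674 (-1.02, adjusted p = 0.0572), Pino (0.32, adjusted p = 0.197) and ImpL2 (0.33, adjusted p = 0.0656) did not pass, so that these 3 were no longer called in both. A second probe of Pino had a difference of 0.09 (adjusted p = 0.80). The loss values of ImpL2 followed the dye, at -0.21 with the mutant in Cy3 and 1.17 with it in Cy5. With the mutant in Cy3, ImpL2 was thus lower than wild type in both experiments. For Pino these loss values were 0.17 and 0.87.

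**Figure D4:**
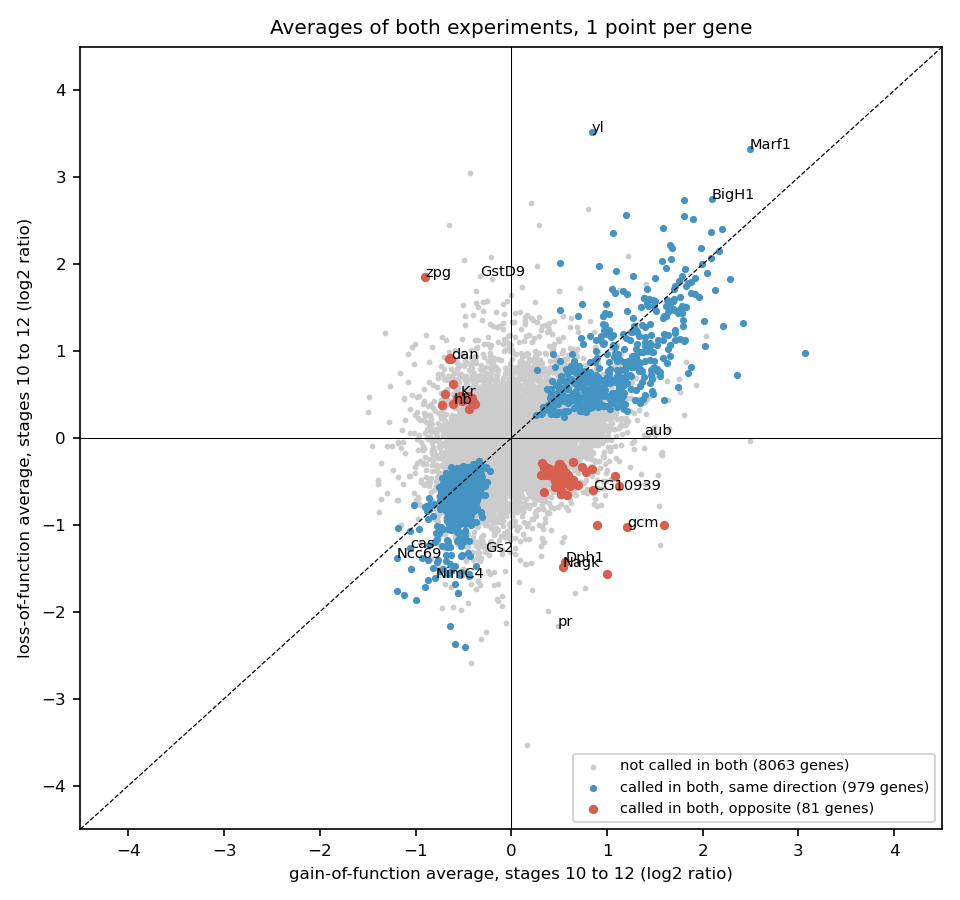
Average log2 ratio over stages 10 to 12 of each of the 9123 tested genes in the gain (horizontal) and loss of function (vertical), with the line of equal values dashed. Red marks the 81 genes called in both averages in opposite directions and blue the 979 called in the same direction.

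Genes called in the same direction in both experiments were the larger class. The 5 with the largest smaller effect among those higher in both were Marf1, BigH1, the piRNA pathway gene SoYb (2.20 and 2.41), the cellularisation gene slam (2.08 and 2.37) and CG5966 (2.17 and 2.15). Among those lower in both they were the cotransporter gene Ncc69 (-1.20 and -1.38), cas, Spn43Aa (-1.12 and -1.80), Smyd5 (-1.19 and -1.76) and Oseg4 (-1.05 and -1.07). None of these 10 was called in the difference.

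Single stages called fewer genes: 154 of 11429 at stage 10 (1.35%, with 0.831% higher), 218 of 10000 at stage 11 (2.18%) and 118 of 10283 at stage 12 (1.15%). A change of the difference between stages 10 and 12 was called for 47 of 10143 genes (0.463%), 17 upward and 30 downward. The gene distal antenna (dan), which encodes a nuclear protein of neuroblasts and of the eye and antenna, was one of them. Its gain-of-function ratios were -1.15, -0.49, -0.83 and -1.46 at stage 10, -0.40, 0.09, -0.06 and -0.42 at stage 11, and -0.53, -0.57, -0.41 and -1.12 at stage 12. In the mutants they were 1.85, 1.63, 1.42, 2.38 and 2.09 at stage 10, 1.52, 1.63, 2.33 and 2.03 at stage 11, and -2.0, -1.79, -1.25 and 1.23 at stage 12. All 9 mutant values of the earlier stages were above 1, and at stage 12 the doubtful array alone stood above 0. The difference went from -2.92 at stage 10 to 0.26 at stage 12, a change of 3.17, and the change was 3.82 without that array (adjusted p = 2.97e-07).

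Fili, which encodes a leucine-rich repeat transmembrane protein, went the other way. Its gain-of-function ratios were 0.28, -0.32, 0.50 and 0.29 at stage 10, -0.44, -1.37, -0.16 and -0.61 at stage 11, and 0.10, -0.54, -0.28 and -0.38 at stage 12. In the mutants they were -1.87, -2.54, -2.79, -2.72 and -1.49 at stage 10, -2.11, -2.31, -1.74 and -2.44 at stage 11, and 0.31, 0.52, 0.92 and 0.97 at stage 12. The 4 mutant arrays of stage 12 were all above 0 and the 9 earlier ones all below -1. The difference changed by -3.33 (adjusted p = 2.02e-06), and by -3.29 without the doubtful array.

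The later stages 13, 14 and 16, with 13 gain-of-function and 12 loss-of-function arrays and stage-matched wild types of their own, showed how far the difference lasted. There, 1058 of 9532 genes differed (11.1%, and 9.16% of probes), 539 higher and 519 lower. Over probes the split was 662 higher and 849 lower, and on uncentred arrays it was 28 higher and 2286 lower. Of the 741 genes higher early, 734 were tested late, of which 265 were called higher and 4 lower (36.1% higher, beside 5.65% of all genes). Of the 164 lower early, 159 were tested and 67 were called lower and 0 higher (42.1%, beside 5.44%). Of the mirror-image genes, 38 of 62 and 12 of 19 were called in the late difference in their early direction, while 6 and 1 were again called in both averages in opposite directions (beside 0.304% and 0.168% of all genes).

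Among the genes that lasted, gcm had a late difference of 2.59, pr of 2.61 (with 0.33 and -2.28), Nagk of 2.86 (with 1.24 and -1.62) and loco of 0.71 (adjusted p = 0.000331). For zpg it was -1.92, for Kr -1.05 and for hb -0.74, each called. Of the matrix and blood genes, NimC4 had 1.73 late, PPO2 2.04 and Pxn 1.38, and their late gain averages (-0.10, -0.56 and -0.33) lay nearer to 0 than the loss averages (-1.83, -2.60 and -1.71). In contrast, Gs2 had 0.14 late, with 0.33 and 0.19, and was not called there. The test of late minus early itself did not pass for Gs2 (-0.90, adjusted p = 0.101).

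That test called 72 of 8312 genes (0.866%), 6 upward (0.0722%) and 66 downward (0.794%). CG14973 fell from 3.70 to 0.08 and CG11594 from 2.56 to -1.10. The early neuronal factor gene nerfin-1 went from 0.29 to -1.40 (change -1.69, adjusted p = 0.00499) and the RNA-binding protein gene fne of neurons from 0.38 to -0.95 (change -1.33, adjusted p = 0.0243). For nerfin-1 both early averages were lower (-0.73 and -1.02), while late it was -1.13 in the gain and 0.27 in the loss of function. PPO1, a prophenoloxidase of crystal cells, went from -0.11 to 1.74 (change 1.85, adjusted p = 0.0365).

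**Figure D5:**
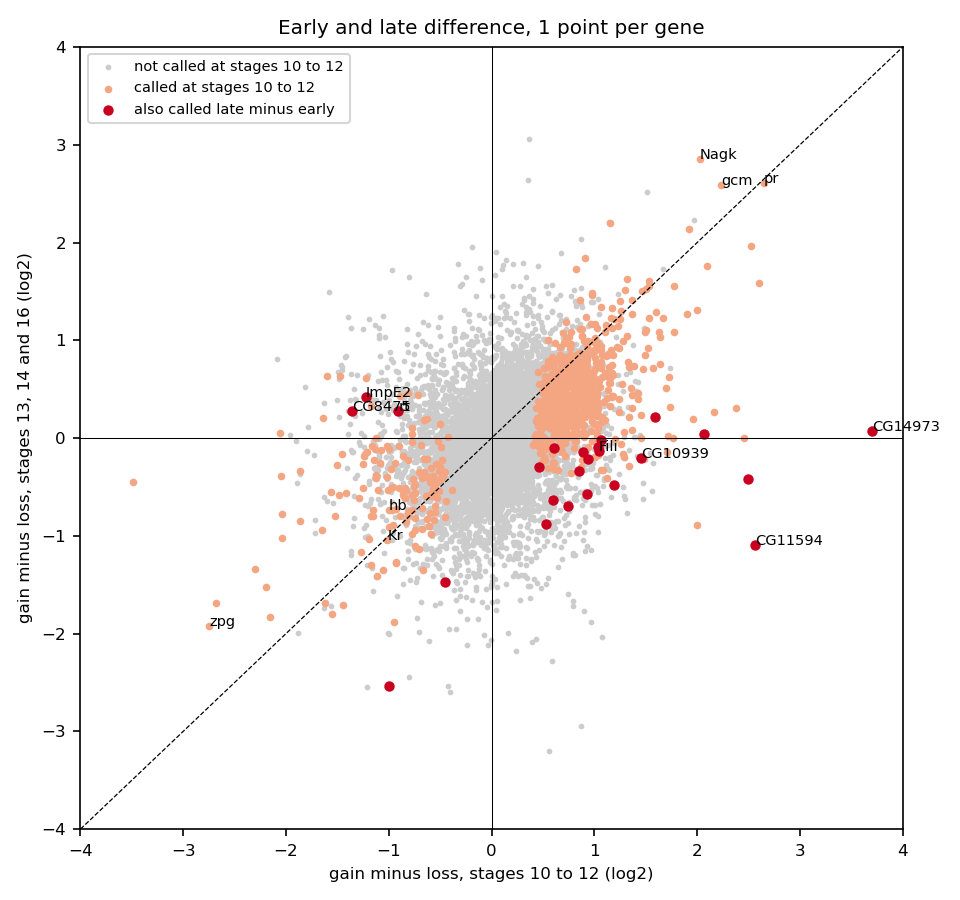
Gain minus loss in log2 at stages 10 to 12 (horizontal) and at stages 13, 14 and 16 (vertical), 1 point per gene, with the line of equal values dashed. CG14973 lies at 3.70 early and 0.08 late, while gcm, pr and Nagk lie above 2 in both.

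The neighbours of gcm were described because the mutant chromosome was selected with that locus. Of 15 genes on each side in the RefSeq annotation, 22 of 30 were tested, and 6 were called in the loss average (22.6% of all genes), 5 of them lower (14.5% of all genes). In the difference 3 were called (9.92% of all genes): numb (-0.61), Oatp30B (0.51, with 0.52 and 0.00) and Trx2 (1.2, with -0.10 and -1.29). Trx2, a thioredoxin gene, is the fourth gene beyond gcm on the side of gcm2.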

How the data were processed

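The table the authors deposited gives a log2 ratio (Cy5 to Cy3) for every spot. Per the series design text they used ScanArray 3.1 and GenePix 5.0, kept arrays by the reproducibility of repeat spots, and made at least 4 independent experiments per stage. Background correction and normalization are not given in the sources used here, nor is the log base, which was taken as 2 from the values. Exact zeros and sizes of 9 or more were taken as missing, the spots of each probe (47616 spots, 23808 probes) were averaged, signs were set by the labelled dye so that positive means higher in perturbed embryos, and each array was centred on its median. Intensities were not used, so no filter on signal was possible.

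Names came from the platform annotation, updated through Entrez identifiers to RefSeq (assembly Release 6 plus ISO1 MT, used for names and neighbours only): 13455 probes had 1 gene, 153 several and 10200 none, giving 11663 genes. A gene is its probe measured on most of the 25 arrays. Of 203 list entries, 163 were on the array.

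A linear model with 14 groups and a dye term per experiment was fitted per probe to all 58 arrays (R 4.3.3, limma 3.58.1 squeezeVar), with two-sided p-values and Benjamini-Hochberg adjustment over all tested probes of a comparison, threshold 0.05. To be tested, a probe needed 3 or more measured arrays in every group of a comparison, with each dye orientation among them. In simulated data on 15453 probes for gain minus loss, 6 of 100 changes of 0.5 and 35 of 100 changes of 1 (log2) were recovered, with 4.65% of calls false. Only 200 probes were changed there, and the noise was normal and independent between probes and arrays. Recovery and false calls in the real data, with 1242 probes called, can therefore differ from these values. The number of arrays limits the precision. Figures used matplotlib.

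Genes were named by rule: gcm, gcm2, repo and loco, the 12 highest and 12 lowest differences, 8 mirror-image genes per direction, 5 per direction of genes moving alike, up to 5 called members of each list, and the 5 highest and lowest changes between stages; other list members are given as examples. The comparisons, gene lists and this rule were chosen with earlier results of these data known. Alternatives were another scaling, filter, dye or array weighting, the replicate number as a block, the maternal list as a covariate, and leaving out a stage or an array.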

Additional observations from a re-analysis of the deposited data

Results flagged for a closer look

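Within the 60 groups of arrays examined for the 10 genes given array by array, 2 single values stood apart from the others of their group. The rule flags about 1 in 20 groups by chance, and 2 of 60 is not above that rate. Both flagged values belonged to replicate 2 of loss-of-function stage 11, with -1.118 for loco and -3.819 for NimC4.

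The change of the difference from early to late stages passed its own test for 17 of the named and list genes. It was upward for CG8475 (1.64), ImpE2 (1.64), PPO1 (1.85), Ssadh (1.2) and rt (1.18). It was downward for TwdlK (-3.82), EAChm (-3.76), CG11594 (-3.66), CG14973 (-3.62), Cpr64Ab (-3.11), CG15547 (-2.92), nerfin-1 (-1.69), CG10939 (-1.66), fne (-1.33), E(spl)mdelta-HLH (-1.29), Fili (-1.18) and brat (-0.88). Without replicate 4 of loss-of-function stage 12, CG10939 changed by -1.76 and wor passed as well (-0.76, adjusted p = 0.0469).

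From stage 10 to stage 12 the difference changed upward for SNCF (5.4), BBS5 (4.31), CG4408 (3.53), CG12194 (3.44) and dan (3.17). It changed downward for Cpr49Ae (-5.86), CG12290 (-4.0), Fili (-3.33), CG14395 (-3.29), CG6770 (-3.07), wor (-1.83), Tl (-1.54) and vvl (-1.37). Without that replicate, BBS5 (4.13, adjusted p = 0.0665), Tl (-1.34, adjusted p = 0.0854) and vvl (-1.30, adjusted p = 0.0633) no longer passed.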

How the results depend on the processing

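With the settings of the report, the difference had 1242, the gain average had 2902, the loss average had 2698, stage 10 had 245, stage 11 had 322, stage 12 had 194, the change from stage 10 to 12 (the stage change) had 62, late minus early had 94, the late difference had 1511, opposite changes had 81 and like changes had 979 calls (probes, and genes for opposite and like changes). Counts outside 1.5 times these follow, and the cause was not tested. On uncentred arrays they were 628 for the difference, 1269 for the gain average, 1274 for the loss average, 14 for stage 10, 13 for stage 11, 9 for stage 12, 1 for the stage change, 3197 for late minus early, 2314 for the late difference, 6 for opposite changes and 169 for like changes. On arrays scaled to one spread they were 502 for stage 10 and 454 for stage 12. For probes measured on all 25 arrays, 7679 were tested at each stage, in place of 23010, 18437 and 18656. Opposite changes were counted over 5697 genes in place of 9123. The counts were 465 for stage 10, 746 for stage 11, 459 for stage 12, 360 for the stage change, 210 for late minus early and 123 for opposite changes. With zeros kept they were 143 for stage 10, 75 for stage 12, 13 for the stage change and 37 for opposite changes. With spot pairs limited by their SD far fewer probes were tested, 2903 in place of 15453 for each average. A larger share of them was called. At the single stages 5966, 3887 and 4713 were tested. Opposite changes were counted over 2083 genes. The counts were 1684 for the gain average, 1468 for the loss average, 1048 for stage 10, 538 for stage 11, 1557 for stage 12, 833 for the stage change and 131 for opposite changes. With array weights they were 2736 for the difference, 5322 for the gain average, 1477 for stage 10, 1136 for stage 11, 2523 for stage 12, 1379 for the stage change, 323 for late minus early, 241 for opposite changes and 1687 for like changes. With the 25 arrays fitted alone they were 782 for the difference, 85 for stage 10, 68 for stage 11, 84 for stage 12, 1 for the stage change and 39 for opposite changes. With the maternal list as covariate both averages were extrapolated below the maternal mean of every array of stages 10 to 12. The counts were then 191 for the gain average, 1530 for the loss average, 400 for stage 10, 151 for the stage change, 1 for opposite changes and 99 for like changes. Without stage 10 they were 615 for the difference, 1349 for the gain average, 25 for late minus early, 26 for opposite changes and 394 for like changes. Without stage 11 they were 574 for the difference, 1766 for the gain average, 18 for late minus early, 15 for opposite changes and 510 for like changes. Without stage 12 they were 576 for late minus early. Without replicate 4 of both loss-of-function stages 11 and 12, an alternative chosen after seeing the data, they were 454 for stage 12, 111 for the stage change, 178 for late minus early and 123 for opposite changes. With 1 array left out, counts ran from 997 (without loss-of-function stage 12 replicate 1) to 1649 (without loss-of-function stage 12 replicate 4) for the difference, from 2339 (without gain-of-function stage 11 replicate 3) to 3145 (without loss-of-function stage 11 replicate 2) for the gain average, from 2339 (without loss-of-function stage 12 replicate 1) to 2856 (without loss-of-function stage 12 replicate 4) for the loss average, from 114 (without gain-of-function stage 10 replicate 1) to 329 (without loss-of-function stage 11 replicate 2) for stage 10, from 154 (without gain-of-function stage 11 replicate 4) to 772 (without loss-of-function stage 11 replicate 3) for stage 11, from 39 (without gain-of-function stage 12 replicate 4) to 430 (without loss-of-function stage 12 replicate 4) for stage 12, from 30 (without gain-of-function stage 12 replicate 4) to 119 (without loss-of-function stage 11 replicate 2) for the stage change, from 65 (without loss-of-function stage 12 replicate 1) to 197 (without loss-of-function stage 12 replicate 4) for late minus early, from 1447 (without gain-of-function stage 12 replicate 3) to 1777 (without loss-of-function stage 11 replicate 2) for the late difference, from 48 (without loss-of-function stage 12 replicate 1) to 115 (without loss-of-function stage 12 replicate 4) for opposite changes and from 840 (without gain-of-function stage 11 replicate 3) to 1070 (without loss-of-function stage 11 replicate 2) for like changes.

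Same-numbered arrays of the experiments did not pair: their residuals correlated at -0.03 to 0.04 over 12 pairs, 0 of them over 0.1. With the replicate number as a block, 1117 probes were called in the difference in place of 1242, and 206 in place of 322 at stage 11.

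No named gene with a called difference reversed its direction in any alternative run. Of 82 named genes, 59 had a called difference, and 25 of these lost their call on uncentred arrays, among them hb, Kr, sna, loco, numb, sli and comm. Calls of nub, swa and dup were lost in over 20 of their settings each, while gcm, aub, pr, yl, zpg and GstD9 kept theirs in all.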
